A study of Mus musculus with 28 samples.

Results

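Caspases are cysteine proteases that are made as inactive precursors. The family members described here are Casp1 and Casp4, the inflammatory caspases, and Casp2, Casp6, Casp8 and Casp9, which act in apoptosis. Each member was represented by the brightest probe named for it that was well above background on at least 3 of 28 arrays. All 6 named members passed that rule, each with 1 probe, among 19404 genes tested. RNA came from CD4 or CD8 T cells, which had been sorted from BALB/c mice of 2 ages: the young group was 4 months old and the old group 20 months. Cells were taken before stimulation (0 h, 3 arrays for each age and cell type) or after 4, 12, 24 or 72 h on plates coated with stimulatory antibodies against CD3 and CD28, which act on the T cell antigen receptor complex and its costimulatory receptor (1 array for each age, cell type and time, 20 groups in all). All mice were of this strain, no group carried a transgene or a deletion, and the RNA of each group was a pool of 4 sortings, so the 0 h replicates may differ only technically and the p-values then measure that spread alone. The labels conflict on the gate: titles name cells with much CD44 and descriptions name naive cells with little, and the cells are therefore called only CD4 and CD8 T cells here.

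An inflammasome is a complex of a sensor such as an NLR protein, the adaptor Pycard and Casp1. Active Casp1 matures the cytokines encoded by Il1b and Il18 and cleaves gasdermin D (Gsdmd), whose fragments make pores in the cell membrane. Casp4, known as caspase-11 in much of the mouse literature, responds to lipopolysaccharide inside the cell and also cleaves gasdermin D. In apoptosis the initiator Casp8 is recruited to death receptors through Fadd, the initiator Casp9 is activated on the Apaf1 apoptosome after cytochrome c leaves mitochondria, and Casp2 can be activated by Pidd1 and Cradd. Casp6 is an executioner protease that cuts nuclear lamins, among other substrates. T cells depend on death receptor and mitochondrial apoptosis for the contraction of activated clones. Array values report the RNA of these precursors and not protease activity.

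Casp1 and Casp4 are neighbours on mouse chromosome 9, with 0 protein-coding genes between them in the RefSeq gene order (GRCm38.p6). Both were higher in old cells, so the promoter bases of both are shown: the 250 bases before each RefSeq start, plus strand, GRCm38.p6. Capitals mark each match, on either strand, to an NF-kB type pattern (GGG, then any 3 bases, then TTCC). NF-kB factors are induced by antigen receptor signalling.
Casp1 (chr9:5298267-5298516): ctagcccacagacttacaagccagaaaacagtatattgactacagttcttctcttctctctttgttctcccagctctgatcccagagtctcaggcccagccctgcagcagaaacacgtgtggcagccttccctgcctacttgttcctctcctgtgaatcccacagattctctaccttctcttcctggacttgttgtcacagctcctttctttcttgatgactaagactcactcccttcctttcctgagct
Casp4 (chr9:5308599-5308848): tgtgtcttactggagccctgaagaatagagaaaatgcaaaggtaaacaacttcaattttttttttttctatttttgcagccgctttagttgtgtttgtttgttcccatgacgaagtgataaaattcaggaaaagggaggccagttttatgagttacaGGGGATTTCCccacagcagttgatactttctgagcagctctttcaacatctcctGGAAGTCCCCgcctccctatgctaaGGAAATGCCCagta

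Casp4 has 2 RefSeq starts in the promoter table, and the window of the first is shown. It held 3 matches, GGGGATTTCC starting at position -93 from the start site, GGAAGTCCCC at -39 and GGAAATGCCC at -14, the last 2 on the minus strand. From the other start the same matches lie at -104, -50 and -25. The promoters of the other 5 members held 0 matches, as 300-base windows that also cover 50 bases after the start. Of 32851 RefSeq promoters of that length, 5.56% held at least 1 match and 0.0213% held 3 or more. Both shares count the 2 Casp4 windows, which overlap. None of 7 further patterns matched in any member, searched on both strands. These were ISRE (GAAA, any 2 bases, GAAA, in 3.44% of promoters), GAS (TTC, any 3 bases, GAA, 8.30%), a longer GAS form with 4 bases between (6.95%), AP-1 (TGANTCA, 7.81%), ETS (CCGGAAGT, 3.89%), a p53 core (CATG, any 6 bases, CATG, 0.712%) and a TATA box (TATAAA, 13.6%). A match describes letters in this window and no bound factor.

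On the arrays the probes lay at chr9:5223467-5223969 for Casp1, chr9:5253886-5253945 for Casp4, chr1:59095846-59095905 for Casp8, chr6:42225350-42225409 for Casp2, chr4:141194312-141194371 for Casp9 and chr3:129752889-129752948 for Casp6, in the mm7 coordinates of the files. The Casp1 probe spans 503 bases of genome, longer than the 60 of the other members' probes. Gene models of mm7 were not used here. The member probes were well above background on 28 of 28 arrays and never saturated, except that the Casp8 spot of old CD8 cells at 12 h was flagged as non-uniform and left out, so Casp8 has 27 arrays. Levels are given as the log2 signal minus that of the 75th percentile of the array, so that 0 is the 75th percentile and 1 unit is a doubling. Between 16989 and 28817 probes per array were above background. Arrays of CD4 cells stimulated for 12, 24 or 72 h were less precise, with a coefficient of variation of repeat spots of 15.5 to 21.5% against 4.35 to 9.69% on the other arrays. Cd8a was 9.21 ± 0.20 log2 units higher (SE) and Cd4 lower by -2.97 ± 0.26 in CD8 than in CD4 cells at 0 h, and Cd3e was well above background on 28 of 28 arrays, as the lineage labels say.

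The inflammatory caspases separated the ages before stimulation and no apoptotic one passed the test. Casp1 and Casp4 were 6.63-fold to 13.1-fold higher in old cells, in CD4 and in CD8 cells. Of 4 apoptotic members 0 were called in either cell type. Across the genes tested, 1.22% were called higher in old CD4 cells and 1.7% in old CD8 cells (limma, adjusted p under 0.05), or 1.74% and 2.22% in either direction, while 2 of 2 inflammatory members were called higher in each.

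Casp1, the protease of the canonical inflammasome, had log2 levels of 3.61, 3.60 and 4.22 on the 3 arrays of old CD4 cells and of 0.45, 0.45 and 1.05 on those of young CD4 cells. In CD8 cells it stood at 3.31, 3.22 and 3.29 in old and at -0.51, 0.11 and -0.09 in young. Every old array lay above every young array by more than the whole spread within either age. The difference was 3.16 ± 0.25 in CD4 cells (log2, SE, n = 3 against 3, 8.92-fold, 95% interval 6.05 to 13.2, limma adjusted p = 0.0010). It was 3.44 ± 0.25 in CD8 cells (10.8-fold, 7.35 to 15.99, limma adjusted p = 0.00022).

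Casp4, the lipopolysaccharide-responsive caspase, measured 3.84, 3.79 and 3.73 in old CD4 cells and 0.89, 1.03 and 1.25 in young CD4 cells. Its CD8 levels were 3.58, 3.38 and 2.99 in old and -0.85, -0.08 and -0.26 in young. Again the ages did not overlap, and the 3 young CD8 arrays held its lowest levels of the series among arrays at 0 h. The difference was 2.73 ± 0.23 in CD4 cells (6.63-fold, 95% interval 4.61 to 9.54, limma adjusted p = 0.0015) and 3.71 ± 0.23 in CD8 cells (13.1-fold, 9.12 to 18.9, limma adjusted p = 7.8e-05).

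**Figure D1:**
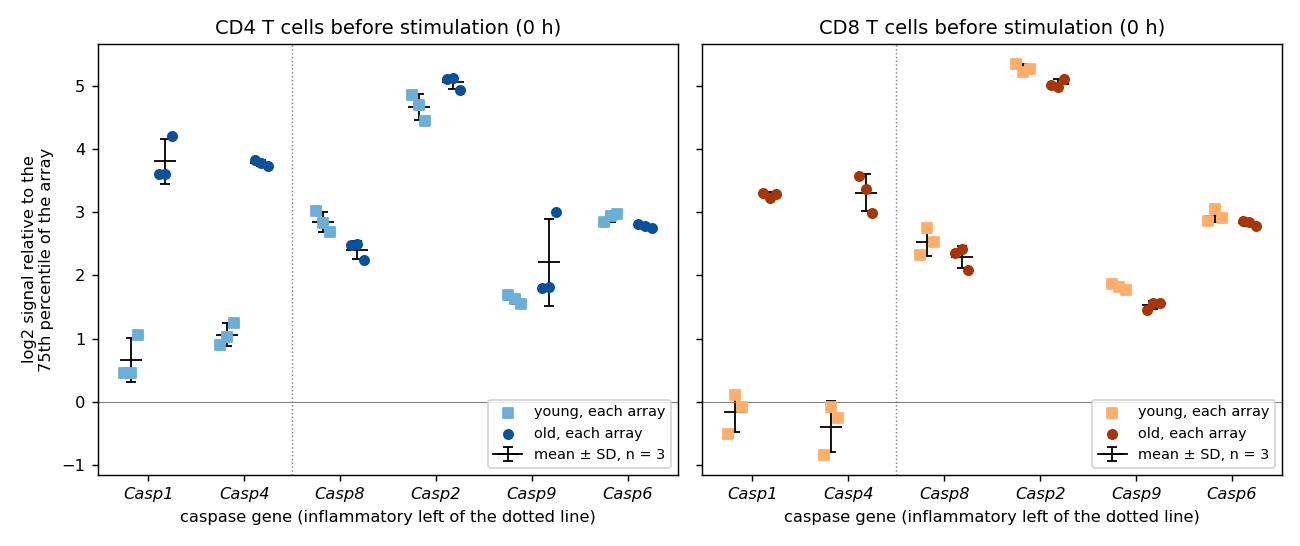
Log2 signal of each caspase relative to the 75th percentile of the array in CD4 (left) and CD8 (right) T cells at 0 h. Squares are young and circles old arrays, and bars are the mean ± SD of 3 arrays. Casp1 and Casp4 sit between 2.99 and 4.22 in old cells and between -0.85 and 1.25 in young cells, whereas for the other 4 genes the means of the ages differ by 0.59 at most, with 1 old CD4 array of Casp9 apart from the rest at 3.01.

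The same differences were seen on each slide that held both ages. Casp1 differed by 3.16 and 3.15 on the 2 slides of CD4 cells and by 3.80 and 3.26 on those of CD8 cells. For Casp4 the values were 2.48 and 2.85 in CD4 cells and 3.84 and 3.65 in CD8 cells. Both genes were called in both cell types under each of 22 alternative treatments of the data.

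The 95% intervals of the apoptotic members reached at most 1.23 log2 units in size, below the lowest bound of 2.21 for an inflammatory one. Casp8, the initiator of death receptor apoptosis, measured 2.48, 2.49 and 2.24 in old and 3.02, 2.84 and 2.70 in young CD4 cells, and 2.35, 2.42 and 2.09 in old and 2.32, 2.76 and 2.53 in young CD8 cells. The old CD4 arrays lay below the young ones, and the CD8 arrays of the ages overlapped. Its difference was -0.45 ± 0.18 in CD4 cells (95% interval -0.85 to -0.04, limma adjusted p = 0.25) and -0.25 ± 0.18 in CD8 cells (-0.65 to 0.16, limma adjusted p = 0.75). With slide as a block the CD4 difference was called (adjusted p = 0.020), in a fit that called 4485 genes in place of 337.

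Casp2, the PIDDosome caspase, measured 5.12, 5.13 and 4.94 in old and 4.87, 4.70 and 4.46 in young CD4 cells. In CD8 cells the order turned, with 5.02, 4.99 and 5.12 in old and 5.36, 5.22 and 5.27 in young. In neither cell type did the ages overlap. The difference was 0.39 ± 0.16 in CD4 cells (95% interval 0.04 to 0.74, limma adjusted p = 0.25, and 0.022 with slide as a block) and -0.24 ± 0.16 in CD8 cells (-0.59 to 0.11, limma adjusted p = 0.68).

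Casp9, the apoptosome initiator, measured 1.80, 1.81 and 3.01 in old and 1.68, 1.62 and 1.54 in young CD4 cells. The old CD4 array of replicate 3 stood above the others, and the difference between the ages was 1.47 on its slide against 0.15 on the other. Over all arrays it was 0.59 ± 0.29 (95% interval -0.05 to 1.23, limma adjusted p = 0.33), and without that array it was 0.19 (adjusted p = 0.48). In CD8 cells Casp9 measured 1.45, 1.56 and 1.57 in old and 1.86, 1.82 and 1.78 in young, a difference of -0.29 ± 0.29 (-0.94 to 0.35, limma adjusted p = 0.83).

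Casp6, the executioner, measured 2.81, 2.78 and 2.75 in old and 2.84, 2.94 and 2.97 in young CD4 cells, and 2.87, 2.85 and 2.79 in old and 2.86, 3.05 and 2.91 in young CD8 cells. The differences were -0.13 ± 0.14 (95% interval -0.44 to 0.17, limma adjusted p = 0.67) and -0.11 ± 0.14 (-0.41 to 0.20, limma adjusted p = 0.89). The old CD4 arrays lay just below the young ones and the CD8 arrays overlapped. In all, the ages did not overlap for 6 of 6 members in CD4 cells and for 4 of 6 in CD8 cells, against 26.1% and 21.9% of all genes measured on every such array.

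The age difference at 0 h was compared between the cell types by an interaction term, which called 0 of 6 members and 0.0515% of all genes. For Casp4 the CD8 difference was larger by 0.98 ± 0.33 (95% interval 0.24 to 1.73, limma adjusted p = 0.32), and for Casp1 by 0.28 ± 0.36 (-0.51 to 1.07, limma adjusted p = 0.80). With slide as a block the term called 2 of 6 members, Casp4 at 0.98 and Casp2 at -0.63 (adjusted p = 0.015 and 0.022), in a fit that called 2629 genes in place of 10. Averaged over the ages, both inflammatory members were lower in CD8 than in CD4 cells: Casp4 by -0.96 ± 0.17 (limma adjusted p = 0.0045) and Casp1 by -0.68 ± 0.18 (limma adjusted p = 0.033), where 4.91% of genes were called lower. Each slide at 0 h held 1 cell type. With slide as a random block neither was called (adjusted p = 0.12 and 0.31), and the Casp1 call was also lost on leaving out young CD4 replicate 1 or 3, old CD8 replicate 1 or 2, or young CD8 replicate 1 or 3 (adjusted p = 0.050 to 0.082). In young cells alone Casp4 was 2.74-fold lower in CD8 cells (-1.46 ± 0.23, limma adjusted p = 0.0069), with 1.42% of genes called lower, a call that only scaling to the array median removed (adjusted p = 0.20) among the alternatives run. The random slide block and the leaving out of replicates were not run for young cells alone, so the dependence of that call on slide was not tested.

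Of the genes that act beside Casp1 and Casp4, the direct partners Gsdmd, Pycard, Il1b and Il18 were called between the ages in neither cell type. Gsdmd, the pore-forming substrate, differed by -0.37 ± 0.20 in CD4 and 0.13 ± 0.20 in CD8 cells (limma adjusted p = 0.38 and 0.92). The adaptor Pycard differed by -0.13 ± 0.24 and -0.24 ± 0.24 (limma adjusted p = 0.83 and 0.84), and the cytokine gene Il18 by 0.02 ± 0.56 and 0.18 ± 0.56 (limma adjusted p = 0.99 and 0.98). Of 22 inflammasome genes tested, 4 were higher in old CD4 cells (Gbp3, Naip2, Nlrc4 and P2rx7) and 0 lower, with a list median of 0.37 against -0.03 over all genes. That is a larger share than the 1.22% of all genes called higher there. In CD8 cells 1 was higher (Naip2) and 1 lower (P2rx7), with a median of 0.14 against -0.05, where 2.22% of all genes were called in either direction.

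Naip2, a sensor of bacterial secretion systems that pairs with Nlrc4, was 4.27-fold higher in old CD4 cells (2.10 ± 0.34, limma adjusted p = 0.020) and 7.08-fold higher in old CD8 cells (2.82 ± 0.34, limma adjusted p = 0.0023). It is 1 of several closely related Naip genes, and cross-hybridization of its probe was not tested. P2rx7, the receptor for extracellular ATP that can trigger the inflammasome, was higher in old CD4 cells (1.00 ± 0.21, limma adjusted p = 0.044) and lower in old CD8 cells (-0.99 ± 0.21, limma adjusted p = 0.038), and the difference of these effects was -1.998 ± 0.29 (limma adjusted p = 0.056).

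Partners of the apoptotic caspases were compared between the ages at 0 h. Of all genes tested, 1.74% were called in CD4 cells and 2.22% in CD8 cells. Among 18 death receptor genes 0 were called in CD4 cells and 2 in CD8 cells, both higher (Fasl, the ligand of Fas, and Tnf). Among 24 genes of the mitochondrial pathway the counts were 0 and 2, again higher (Bcl2a1b, an anti-apoptotic BCL2 relative, and Bik, a pro-apoptotic one). Of 12 caspase substrates 0 were called in CD4 cells and 1, the actin-severing gene Gsn, was lower in CD8 cells. The CD8 counts were larger shares than that over all genes, though each rests on 1 or 2 genes. The medians of these 3 lists lay between -0.29 and 0.04 in CD4 and between -0.12 and 0.21 in CD8 cells. Apaf1, Fadd, Cflar, which restrains Casp8, and the Casp2 partners Pidd1 and Cradd were called in neither cell type (limma adjusted p = 0.38 to 1.00).

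Markers of other cells were measured on the same arrays, since in a bulk sample fewer cells of a type and less RNA per cell cannot be told apart. Over all genes tested, 1.22% were called higher in old CD4 cells and 1.7% in old CD8 cells, with medians of -0.03 and -0.05. Of 32 memory and effector T cell genes 6 were higher in old CD4 cells and 12 in old CD8 cells, with medians of 1.30 and 1.70. The summed level of that list ran from 251 to 273 in old and from 99.2 to 156 in young CD4 cells, and from 1198 to 1415 in old and 426 to 520 in young CD8 cells, in multiples of the 75th percentile. Of 19 B cell genes 6 and 2 were higher (medians 1.32 and 1.06), with summed levels of 24.4 to 24.9 in old and 6.72 to 11.9 in young CD4 cells and of 32.2 to 49.3 and 21.0 to 26.4 in CD8 cells. Their part in the Casp1 and Casp4 differences was not tested.

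Of 26 myeloid genes 0 were called in either cell type. Their medians were -0.12 and 0.75, and their summed levels overlapped in CD4 cells (16.4 to 250.4 in old and 5.51 to 250.1 in young) but not in CD8 cells (57.0 to 194 in old and 11.3 to 56.4 in young). The macrophage markers Csf1r and Adgre1 differed by -1.09 ± 0.41 and -0.02 ± 1.03 in CD4 cells and by 0.04 ± 0.41 and 0.24 ± 1.03 in CD8 cells (limma adjusted p = 0.22 to 1.00). In CD8 cells both lay below the list median of 0.75, so these 2 genes do not stand for the list. The NK list had 0 of 10 called in either cell type, with medians of -0.22 and 0.63 and summed levels of 1.68 to 2.13 in old and 0.67 to 1.51 in young CD4 cells and of 9.53 to 11.8 and 6.25 to 7.22 in CD8 cells. No gene of these 4 lists was below background on all 12 arrays at 0 h. The part of myeloid and NK transcripts in the Casp1 and Casp4 differences was not tested in either cell type.

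After stimulation the 6 genes took separate courses. Casp4 rose and Casp1 fell. Casp6 rose in CD4 cells and passed the test at no time in CD8 cells in this fit. Casp9 fell, Casp8 passed the test at 1 time in CD8 cells and Casp2 at none. Each time was set against 0 h with the young and old array standing in as replicates and 1 age term per cell type. No stimulated array shared a slide with an array at 0 h, so slide and stimulation cannot be told apart. The young and old array of a time shared a slide, except in CD8 cells at 12 h. The p-values therefore leave out most of the spread between slides. At 4, 12, 24 and 72 h this fit called 32.2, 40.7, 44.8 and 39.1% of genes in CD4 cells and 27.3, 30.2, 33.2 and 28.1% in CD8 cells. Of the 6 members it called 2, 4, 4 and 3 in CD4 cells and 4, 1, 1 and 2 in CD8 cells.

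The times of the CD8 arrays at 4, 12 and 24 h are in conflict between the authors' files. In the deposited log2 table, the CD8 columns for 4, 12 and 24 h hold the values of the scanner files for 12, 24 and 4 h, in both ages. The scanner files' times are used here. By them, 7 of 8 stimulated CD8 arrays correlated best over genes with the CD4 array of the same age and time, and the exception was old cells at 72 h, closest to 24 h. With the table's times every CD8 value at 4, 12 and 24 h would move to 24, 4 and 12 h, so that 1, 1 and 4 of the 6 members would be called, with 4 at 24 h (Casp1, Casp4, Casp8 and Casp9). The order of CD8 values among those 3 times therefore follows the scanner files' labels, and the 6 arrays in conflict were among the 7 that correlated best with their own time.

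**Figure D2:**
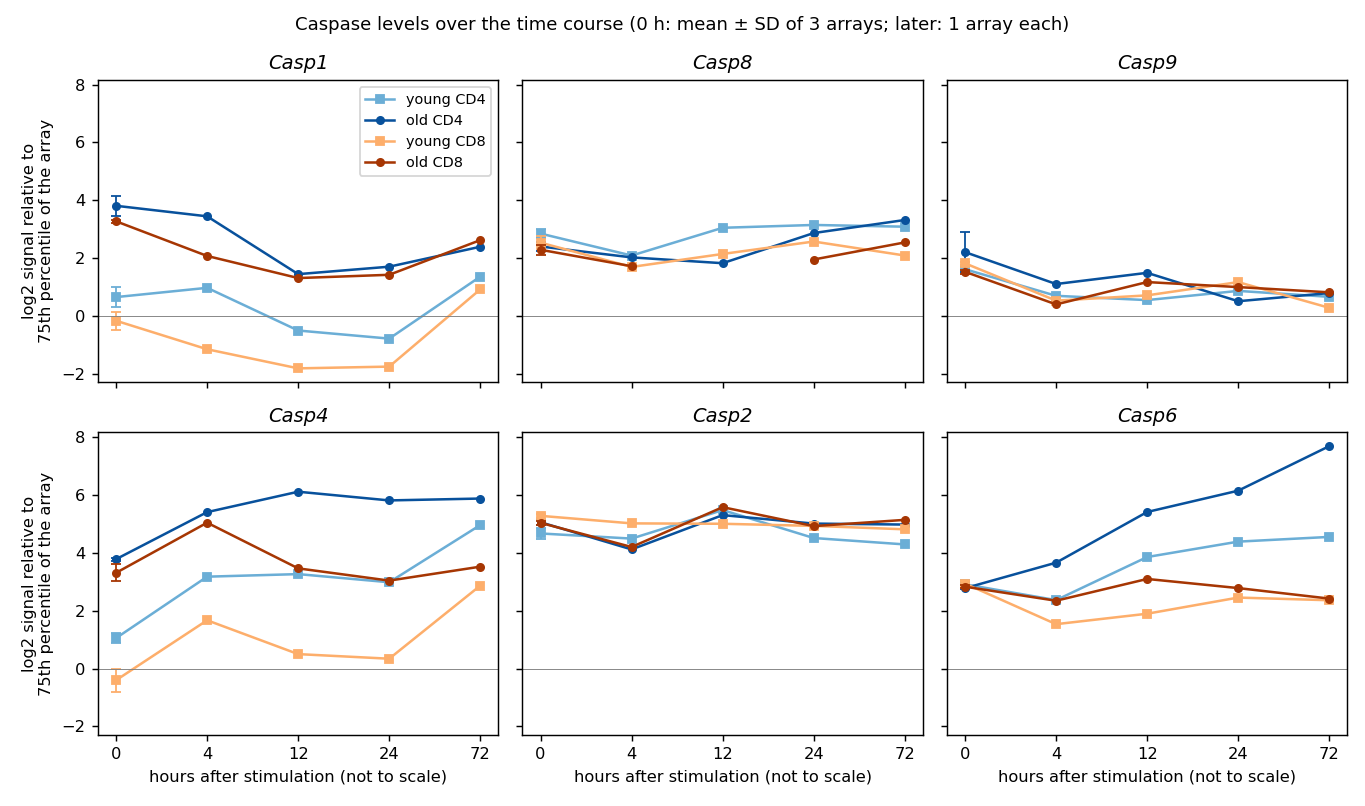
Log2 signal relative to the 75th percentile of the array against hours of stimulation (even spacing, not to scale), 1 panel per gene, for young (squares) and old (circles) CD4 (blue) and CD8 (orange) cells. The point at 0 h is the mean of 3 arrays with its SD, and later points are 1 array each. Casp6 climbs to 7.70 in old CD4 cells, Casp1 dips at 12 and 24 h in all 4 series, and the Casp8 point missing at 12 h is the flagged spot.

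Casp4 at 4, 12, 24 and 72 h measured 5.41, 6.12, 5.82 and 5.88 in old CD4 cells and 3.18, 3.27, 2.99 and 4.97 in young CD4 cells. All 8 values lay above the 0 h arrays of the same age. The CD4 changes were 1.88 ± 0.47, 2.27 ± 0.47, 1.98 ± 0.47 and 3.00 ± 0.47, which is 3.67-fold, 4.83-fold, 3.95-fold and 8.02-fold (limma adjusted p = 0.0044, 0.00072, 0.0020 and 5.7e-05). With the CD4 arrays of 1 scanner and software version only, the 4 h change was 1.80 and missed the threshold (adjusted p = 0.0503).

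In CD8 cells, by the scanner files' times, Casp4 rose at 4 and 72 h and was not called between. With the deposited table's times the highest of the first 3 changes, 1.90, falls at 24 h, and those at 4 and 12 h are 0.53 and 0.24. It measured 5.05, 3.47, 3.05 and 3.53 in old and 1.67, 0.50, 0.34 and 2.87 in young cells. At 4 h the change was 1.90 ± 0.47 (3.74-fold, limma adjusted p = 0.0048). At 12 and 24 h it was 0.53 ± 0.47 and 0.24 ± 0.47 (limma adjusted p = 0.44 and 0.76), with an old mean of 3.31 and a young mean of -0.40 at 0 h. At 72 h it was 1.74 ± 0.47 (3.35-fold, limma adjusted p = 0.0088). The old array at 72 h lay within the range of the old 0 h arrays and the young array above every young one. The CD8 change minus the CD4 change was -1.74 ± 0.67 at both 12 and 24 h (limma adjusted p = 0.17 and 0.13), so a difference between the cell types was not established. With the table's times it was -2.04 and -0.08 (adjusted p = 0.058 and 0.95).

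Casp1 at the same times measured 3.45, 1.45, 1.70 and 2.39 in old CD4, 0.97, -0.50, -0.78 and 1.36 in young CD4, 2.08, 1.31, 1.42 and 2.62 in old CD8 and -1.15, -1.81, -1.75 and 0.92 in young CD8 cells. In all 4 series the values at 12 and 24 h were below every 0 h array of that series. The change at 12 h was -1.76 ± 0.39 in CD4 cells (3.39-fold lower, limma adjusted p = 0.0013) and -1.80 ± 0.39 in CD8 cells (3.49-fold lower, limma adjusted p = 0.0016), and at 24 h -1.77 ± 0.39 and -1.72 ± 0.39 (limma adjusted p = 0.0011 and 0.0020). At 72 h it was -0.35 ± 0.39 and 0.22 ± 0.39 (limma adjusted p = 0.50 and 0.72), with both young arrays above their 0 h arrays and both old arrays below. At 4 h Casp1 fell in CD8 cells (-1.09 ± 0.39, limma adjusted p = 0.043), a call lost with median scaling, with no filter on dim genes and with normexp background correction (adjusted p = 0.064 to 0.15), and the CD4 value was -0.02 ± 0.39 (limma adjusted p = 0.98). The neighbouring genes thus moved in opposite directions at 12 and 24 h in CD4 cells.

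Casp6, the lamin-cutting executioner, was the apoptotic member that rose. In CD4 cells it measured 3.67, 5.42, 6.16 and 7.70 in old and 2.37, 3.86, 4.39 and 4.56 in young. Levels from 12 h on were above every 0 h array in both ages. The change was 0.17 ± 0.47 at 4 h (limma adjusted p = 0.84), 1.79 ± 0.47 at 12 h (3.46-fold, limma adjusted p = 0.0045), 2.42 ± 0.47 at 24 h (5.37-fold, limma adjusted p = 0.00032) and 3.28 ± 0.47 at 72 h (9.69-fold, limma adjusted p = 2.0e-05). These changes are means over the ages and describe neither age alone. From means of 2.78 in old and 2.92 in young cells at 0 h, the levels at 72 h were 7.70 and 4.56, with 1 array each.

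In CD8 cells Casp6 measured 2.35, 3.10, 2.79 and 2.42 in old and 1.54, 1.90, 2.46 and 2.37 in young. Of these 8 values 1 was above the 0 h arrays of its age, that of old cells at 12 h. The changes were -0.94 ± 0.47, -0.39 ± 0.47, -0.27 ± 0.47 and -0.49 ± 0.47 (limma adjusted p = 0.15 to 0.72). The change at 4 h was called under 2 alternatives, separate age terms at 0 h and after stimulation and leaving out the less precise CD4 arrays (-0.94, adjusted p = 0.017 and 0.022). With normexp background correction the change at 72 h was called (-1.09, adjusted p = 0.043). The CD8 change was smaller than the CD4 change by -2.69 ± 0.66 at 24 h (limma adjusted p = 0.028) and by -3.77 ± 0.66 at 72 h (13.6-fold, limma adjusted p = 0.0023), where 4.85% and 8.23% of genes were called in the same contrast. At 12 h the value was -2.18 ± 0.66 (limma adjusted p = 0.092), with 1.25% of genes called. With median scaling the 24 h value was -2.57 and not called (adjusted p = 0.082), and with the deposited table's times it was -3.37 and called (adjusted p = 0.00095). The CD4 arrays at these times were the less precise ones and were read with another scanner than the CD8 arrays, and the part of either was not tested.

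**Figure D3:**
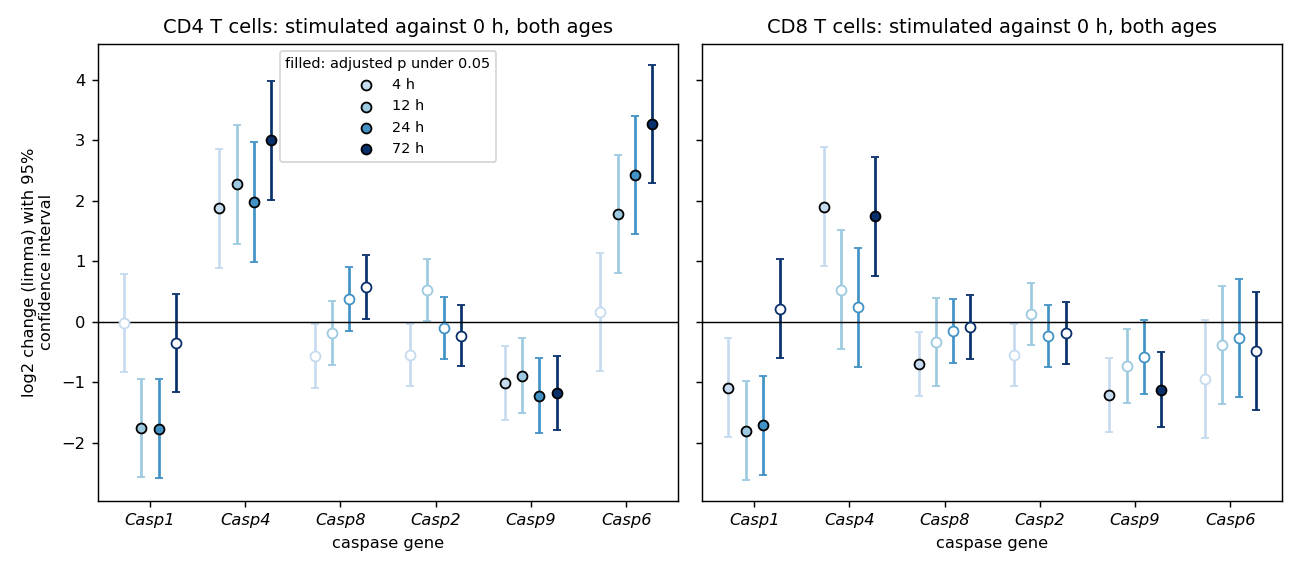
Log2 change of each caspase after 4, 12, 24 and 72 h of stimulation against 0 h over both ages in CD4 (left) and CD8 (right) cells, with 95% confidence intervals from limma. Filled points passed an adjusted p under 0.05. Casp4 and Casp6 rise in CD4 cells to 3.00 and 3.28 at 72 h, whereas the intervals of Casp6 in CD8 cells all include 0.

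Casp9 fell with stimulation. It measured 1.11, 1.49, 0.51 and 0.79 in old CD4, 0.70, 0.55, 0.87 and 0.66 in young CD4, 0.40, 1.17, 1.00 and 0.82 in old CD8 and 0.53, 0.71, 1.17 and 0.28 in young CD8 cells, and all 16 values were below the 0 h arrays of the same series. The CD4 changes were -1.01, -0.89, -1.22 and -1.18, each ± 0.29 (limma adjusted p = 0.012, 0.020, 0.0022 and 0.0035). In CD8 cells, by the scanner files' times, it fell by 1.21 ± 0.29 at 4 h and by 1.12 ± 0.29 at 72 h (limma adjusted p = 0.0042 and 0.0070), with -0.73 ± 0.29 and -0.59 ± 0.29 at 12 and 24 h (limma adjusted p = 0.068 and 0.14). With arrays scaled to their median, the CD4 calls at 4, 12 and 24 h and both CD8 calls were lost (adjusted p = 0.075 to 0.19), with changes of -0.75 to -1.16 in the same direction.

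Casp8 and Casp2 were the members with the fewest calls after stimulation. Casp8 measured 2.03, 1.83, 2.87 and 3.32 in old CD4 and 2.09, 3.05, 3.15 and 3.09 in young CD4 cells, and 1.72, 1.95 and 2.54 at 4, 24 and 72 h in old CD8 and 1.70, 2.15, 2.57 and 2.09 in young CD8 cells. It was lower at 4 h on all 4 arrays than at 0 h, and this passed the test in CD8 cells (-0.70 ± 0.25, limma adjusted p = 0.045) and not in CD4 cells (-0.57 ± 0.25, limma adjusted p = 0.097). The CD8 call was lost under 4 alternatives (adjusted p = 0.060 to 0.36), and with the deposited table's times it stands at 24 h, where the CD8 change was then also smaller than the CD4 change by -1.08 (adjusted p = 0.029).

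Casp2 kept within 2.75-fold over all 20 groups, the narrowest range of the 6. It measured 4.12, 5.31, 5.02 and 4.98 in old CD4, 4.50, 5.48, 4.52 and 4.30 in young CD4, 4.21, 5.59, 4.93 and 5.15 in old CD8 and 5.02, 5.01, 4.94 and 4.82 in young CD8 cells. No time was called in either cell type (limma adjusted p = 0.092 to 0.78). The widest range was that of Casp4, 91.7-fold from young CD8 cells at 0 h to old CD4 cells at 12 h. Casp6 spanned 71.3-fold and Casp1 49.3-fold, against 3.08-fold for Casp8 (19 groups) and 3.80-fold for Casp9.

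The inflammatory members stayed higher in old cells after stimulation, by the smallest amount at 72 h. Casp1 was higher in old than in young cells at 4 of 4 times in each cell type. The gap was 2.47, 1.95, 2.49 and 1.03 at 4, 12, 24 and 72 h in CD4 cells and 3.23, 3.12, 3.18 and 1.70 in CD8 cells. For Casp4, also higher in old cells at 4 of 4 times, the gap was 2.23, 2.85, 2.83 and 0.92 in CD4 and 3.37, 2.97, 2.70 and 0.65 in CD8 cells. At 72 h old CD4 and CD8 cells thus held 2.05-fold and 3.25-fold as much Casp1 as young ones, and 1.89-fold and 1.57-fold as much Casp4, with 1 array each and no test at a single time.

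Over the stimulated times together the Casp1 difference was 2.81 ± 0.35 in CD8 cells (6.997-fold, n = 4 against 4, limma adjusted p = 0.012), with 0.33% of genes called higher. That call was lost without the arrays at 4, 12 or 24 h (adjusted p = 0.097 to 0.18) and without the less precise CD4 arrays, which share its estimate of spread (adjusted p = 0.063). It was 1.99 ± 0.35 in CD4 cells (limma adjusted p = 0.094). For Casp4 the values were 2.21 ± 0.48 in CD4 cells and 2.42 ± 0.48 in CD8 cells (limma adjusted p = 0.17 and 0.095), and without the arrays at 72 h the CD8 value was 3.01 and called (adjusted p = 0.020). The members' age differences over stimulated times were not called in CD4 cells, where 0.113% of all genes were.

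**Figure D4:**
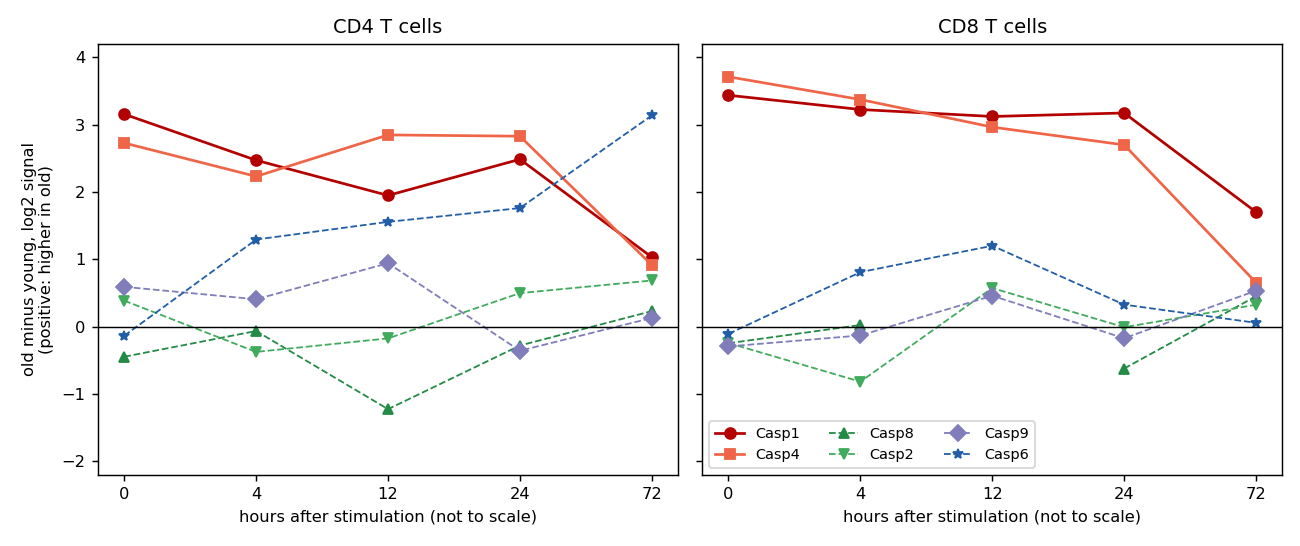
Old minus young difference in log2 signal for each caspase against hours of stimulation (even spacing, not to scale) in CD4 (left) and CD8 (right) cells; each point is a difference of group means at 0 h and of 1 array per age later. Casp1 and Casp4 (solid lines) stay above 1.9 until 24 h and end between 0.65 and 1.70 at 72 h, while Casp6 in CD4 cells climbs from -0.13 to 3.14.

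Casp6 was higher in old than in young CD4 cells at 4 of 4 times after stimulation, by values that missed the threshold. Old CD4 cells exceeded young ones by 1.29, 1.56, 1.76 and 3.14 at 4, 12, 24 and 72 h, which is 8.81-fold at the last time. The mean over the stimulated times was 1.94 ± 0.34 (limma adjusted p = 0.094), and its change from 0 h was 2.07 ± 0.37 (95% interval 1.30 to 2.85, unadjusted p = 3.3e-05, limma adjusted p = 0.21), in a comparison that called 0 of 19403 genes by limma (0%), of which 761 had an unadjusted p below 0.05. The gap in CD8 cells was 0.81, 1.20, 0.33 and 0.06, with a mean of 0.60 ± 0.34 (limma adjusted p = 0.66). No member passed the test for a change of its age difference in either cell type: the Casp1 values were -1.17 ± 0.44 and -0.63 ± 0.44 and those of Casp4 -0.52 ± 0.56 and -1.29 ± 0.56 (limma adjusted p = 0.73 to 1.00), and 0.0103% of all genes were called in CD8 cells.

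The other apoptotic members kept no steady order of the ages after stimulation. Casp2 was higher in old cells at 2 of 4 times in each cell type, with gaps of -0.37 to 0.69 in CD4 and -0.82 to 0.57 in CD8 cells. Casp8 was higher in old at 1 of 4 times in CD4 cells and 2 of 3 in CD8 cells, with gaps of -1.22 to 0.23 and -0.62 to 0.45. Casp9 was higher in old at 3 of 4 and 2 of 4 times, with gaps of -0.36 to 0.94 and -0.17 to 0.54. None of the 3 was called over the stimulated times (limma adjusted p = 0.82 to 0.99).

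Genes of the surrounding pathways are given against the 39.1% of all genes called at 72 h in CD4 cells and the 28.1% in CD8 cells. At that time 14 of 24 mitochondrial genes were higher and 3 lower in CD4 cells (median 1.38 against 0.21 over all genes), among them Apaf1 (2.16 ± 0.41, limma adjusted p = 0.00040), while in CD8 cells 7 were higher and 3 lower (median 0.73 against 0.01) and Apaf1 stood at 0.75 ± 0.41 (limma adjusted p = 0.19). Of 18 death receptor genes 8 were higher and 1 lower in CD4 cells and 4 and 2 in CD8 cells. Of the inflammasome genes 2 of 21 were higher and 3 lower in CD4 cells, and 0 of 22 were higher and 7 lower in CD8 cells, a smaller share than over all genes in CD4 cells and a share near it in CD8 cells. Among those in CD8 cells, Gsdmd fell by 1.00 ± 0.20 (limma adjusted p = 0.0011) and Pycard by 0.93 ± 0.30 (limma adjusted p = 0.025).

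As a description of likeness, group means were correlated with those of 13361 other genes over the 20 groups (Pearson's r). The groups share cell type, age and time, and r carries no test. Closest to Casp1 were Sh3bgrl2 (0.89), an unnamed transcript (TC1488278, 0.87), the chemokine receptor gene Ccr2 (0.85), Mela (0.84) and Nt5e, the ecto-nucleotidase CD73 (0.84). Closest to Casp4 were Serpina3g, a protease inhibitor gene (0.91), the elongation factor gene Ell2 (0.91), Myo1d (0.86), Tmem30b (0.86) and Ptpn13 (0.84). Casp1 and Casp4 had an r of 0.68 with each other, which placed Casp4 65th among genes like Casp1 and Casp1 142nd among genes like Casp4. Casp4 and Casp6 had an r of 0.66, and Casp1 and Casp6 0.26. Those closest to Casp6 were Rubcn, Dram2 and Grb7 (0.88 to 0.89), to Casp8 Ncbp3 and Mbd2 (0.94 and 0.90, 19 groups), to Casp9 Spice1, Aamdc and Tmem191c (0.89 to 0.93) and to Casp2 Fam174c, Ivd and Armc10 (0.78 to 0.80).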

How the data were processed

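Scanner intensity values come from Agilent Feature Extraction, which also subtracted background before the authors deposited them (version 10.1.1.1 for 18 arrays of Cy3-labelled RNA and 9.5.1.1 for 10, per the file headers). The authors also deposited a table of log2 values, scaled to each array's 75th percentile and centred per probe, as a comparison with the scanner values shows.

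Flagged and control spots were left out, repeat spots averaged, and log2 signal minus the array's 75th percentile taken. Genes well above background on 3 or more of 28 arrays were tested with limma 3.58.1 (R 4.3.3; lmFit, eBayes, Benjamini-Hochberg over all genes tested). Ages and cell types at 0 h were compared over the 12 arrays at 0 h, age after stimulation over the 16 stimulated arrays, and stimulation over all 28. The contrast of CD8 with CD4 changes, and the fit with the CD8 times of the deposited table, were added after seeing the data. The fits were tested on simulated data. In CD4 cells the replicate numbers follow the slides (correlations of same-numbered deviations 0.49 to 0.68), and in CD8 cells they do not pair (-0.41 to 0.09). Members and lists were chosen with earlier results of these data known. Named are the 6 members, genes of fixed pathway and marker lists, and the 5 or 3 genes most like each member. Other caspase genes on the array and 1 gene that the likeness rule picks are not reported here. The number of arrays limits the precision.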

Additional observations from a re-analysis of the deposited data

Results flagged for a closer look

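The change of Casp6 with stimulation was called different between the cell types by a test of the difference itself, at 24 h by -2.69 and at 72 h by -3.77 (CD8 minus CD4, log2). This contrast was added after seeing the data, and its 24 h call was lost with median scaling (limma adjusted p = 0.082). The stimulated CD4 arrays were read with another scanner than the CD8 arrays, and the part of the scanner was not tested. At 0 h Casp2 and Casp9 were higher in old CD4 and lower in old CD8 cells, and their arrays did not overlap between the ages. The same holds for 26.1% of all genes in CD4 and 21.9% in CD8 cells. None of these age differences was called without a slide term. For Casp9 in CD4 cells it was 1.47 on the slide of old replicate 3 and 0.15 on the other. The CD8 minus CD4 difference of the age effects was -0.63 for Casp2 (limma adjusted p = 0.34) and -0.89 for Casp9 (limma adjusted p = 0.45), so neither passed without a slide term. With slide as a block the Casp2 difference was called (adjusted p = 0.022) and that of Casp9 was not (adjusted p = 0.12).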

How the results depend on the processing

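Casp1 and Casp4 at 0 h were called in both cell types under all 22 alternatives, with values of 2.95 to 3.36 and 2.65 to 2.85 in CD4 and 3.15 to 3.57 and 3.41 to 3.88 in CD8 cells (adjusted p at most 0.034), among them the normexp correction on median signals, chosen after seeing the data. For other comparisons the number of members called moved by over 1.5 times as follows. With slide as a block, 4 were called in CD4 cells at 0 h (Casp2 at 0.39 and Casp8 at -0.45 joined) and 2 for the difference of the age effect between cell types (Casp2 and Casp4, adjusted p = 0.022 and 0.015). For CD8 against CD4 cells, 0 were called with median scaling or a random slide block and 1 without a filter, with 1 to 2 on leaving out each replicate. In old cells alone normexp correction called 1, and in young cells median scaling called 0 and the stricter filter or an intensity trend 2. Over the stimulated times in CD4 cells, normexp correction and the stricter filter (14 or more arrays) called 2 and an intensity trend 3. In CD8 cells normexp correction, median scaling, an intensity trend and leaving out 72 h called 2, whereas leaving out 4, 12 or 24 h or the less precise CD4 arrays called 0. For stimulation at 4 h in CD4 cells median scaling and 1 scanner version called 1 and quantile normalization 4, and in CD8 cells normexp correction and no filter called 2 and median scaling 1. At 12 h in CD8 cells quantile normalization and the stricter filter called 2, and at 72 h median scaling 1. For the difference of the change, separate age terms called 1 at 12 h and median scaling 0 at 24 h. With the CD8 times of the deposited log2 table, tried after seeing the data, stimulation in CD8 cells called 1 at 4 h and 4 at 24 h, and the difference of the change 2 at 24 h. Smaller moves were 1 member each: up to 5 at 4 h in CD8 cells with quantile normalization or without the less precise CD4 arrays, up to 4 and 3 at 72 h in CD4 and CD8 cells with normexp correction, and down to 3 at 12 and 24 h in CD4 cells with median scaling.

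The genes called at 0 h in CD4 cells numbered 337, but 74 with median scaling (91.9% higher against 70.0%), 116 without a filter, 533 with the stricter filter, 4485 with slide as a block and 161 with the replicate number as a block, and 29 to 593 on leaving out each replicate. In CD8 cells they numbered 430, but 264 with median scaling, 1867 with slide as a block and 173 to 706 on leaving out each replicate. The replicate block changed no call of a member. Median scaling moved the median change of all genes at 24 h in CD8 cells from -0.10 to 0.29. Of the 28 columns with deposited log2 values, 6, all of stimulated CD8 cells, held another array's values and 8, of stimulated CD4 cells, were centred apart, so they were used only where neither matters, and normexp on mean signals was not run, as only 10 of 28 files hold them. The causes of these changes were not tested.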
